A study of Drosophila melanogaster with 3 samples.

Results

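The cuticle protein genes were taken by symbol from the Ensembl annotation of the fly genome: protein-coding genes whose symbols start with Cpr and a digit, Twdl, Lcp, Ccp84A, or Acp and a digit. There were 136 such genes of 13986 protein-coding genes in all, and of 13945 on the 6 chromosome arms. The prefix Cpr gave 70 genes, Twdl 25, Acp 19, Lcp 15 and Ccp84A 7. The measurement was chromatin immunoprecipitation with sequencing (ChIP-seq) of the transcription factor HLH54F in whole Drosophila melanogaster embryos of both sexes, 0 to 24 h old. The embryos came from a transgenic line that carries HLH54F with GFP fused to its C terminus. All 3 biological replicates belonged to this 1 group, so no other genotype, treatment or stage was compared, and nothing labels the replicates as separate crosses. The labels' description names an antibody against GFP, whereas their antibody field names HLH54F. Chromatin was sonicated to fragments of 200 to 800 bp, and a whole embryo mixes epidermis with every other tissue.

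The insect cuticle is an extracellular coat of chitin fibres and proteins that epidermis, trachea, foregut and hindgut secrete; the embryo makes the first larval cuticle late in its development. Most proteins of the Cpr, Lcp and Ccp84A groups carry chitin-binding domains of the Rebers-Riddiford type, and Tweedle proteins form a separate cuticle family in which mutations can change body shape. HLH54F is a basic helix-loop-helix factor, a class that binds E-boxes (CANNTG), and it is known for its requirement in the caudal visceral mesoderm, the source of the longitudinal gut muscles.

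The label was checked against the RefSeq gene descriptions. They call 70 members cuticular proteins, 25 Tweedle proteins, 6 larval cuticle proteins and 2 adult cuticle proteins (Acp1 and Acp65Aa). The other 17 Acp members are accessory gland proteins, seminal fluid proteins of the adult male, and go against the label. The remaining 16 (the 7 Ccp84A genes and 9 genes of the Lcp65A group) had no description, and with them 119 members are cuticle proteins. RefSeq also lists 3 genes outside the symbol rule with a Cpr or Twdl synonym: CG34461, CG34462 and Tb, the Tubby gene (TwdlA). The members are short, with a median span of 909 bp against 2166 bp for all protein-coding genes, and 125 of the 136 have 1 annotated start.

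The cuticle promoters share a sequence feature that the symbol rule did not use. The hexamer TATAAA, the core of the TATA box, was searched on the coding strand between positions -45 and -15 of the canonical transcript's start. It was present in 80 of 136 members, or 58.8% (95% Wilson interval 50.4 to 66.7), against 8.95% of all protein-coding promoters. Of the 119 cuticle proteins 75 had it (63.0%). The 45 bases before the start are shown for a member of 6 clusters each, as the first member of the cluster with the hexamer, and for Cpr67Fb, whose promoter lacks it and which had the strongest relaxed-list signal among the members on the arms shown. The bases come from the release 6 (dm6) genome, run 5′ to 3′ on the coding strand and have TATAAA in capitals. Lcp65Ag3 lies at chr3L:6130990-6131034 (minus strand), TwdlM at chr3R:26619073-26619117 (plus), Ccp84Ag at chr3R:6686683-6686727 (plus), Cpr64Aa at chr3L:4209179-4209223 (minus), Cpr76Ba at chr3L:19518333-19518377 (minus), TwdlX at chrX:16731046-16731090 (plus) and Cpr67Fb at chr3L:10894128-10894172 (plus).
Lcp65Ag3: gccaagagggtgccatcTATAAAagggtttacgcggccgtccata
TwdlM: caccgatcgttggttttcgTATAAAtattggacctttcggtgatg
Ccp84Ag: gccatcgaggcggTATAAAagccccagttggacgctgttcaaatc
Cpr64Aa: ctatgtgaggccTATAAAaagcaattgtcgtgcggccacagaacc
Cpr76Ba: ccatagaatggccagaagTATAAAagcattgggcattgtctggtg
TwdlX: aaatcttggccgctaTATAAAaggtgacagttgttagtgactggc
Cpr67Fb: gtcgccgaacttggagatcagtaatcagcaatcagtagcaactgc
The hexamer starts between -33 and -26 in the 6 promoters that have it, and its median position over the members was -29.

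No cuticle gene had a high-confidence HLH54F peak at its promoter. The authors' optimal list holds the 4246 peaks that passed their irreproducible discovery rate procedure, built to retain peaks with matching ranks between replicates. A promoter peak was a summit, the highest point of a peak, within 500 bp of any annotated start of the gene. The optimal list put a summit there for 0 of 136 members, and a count of 0 allows a share of up to 2.21%. Over all protein-coding genes 3157 of 13945 had one (22.6%). The count was also 0 among the 119 cuticle proteins.

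**Figure D1:**
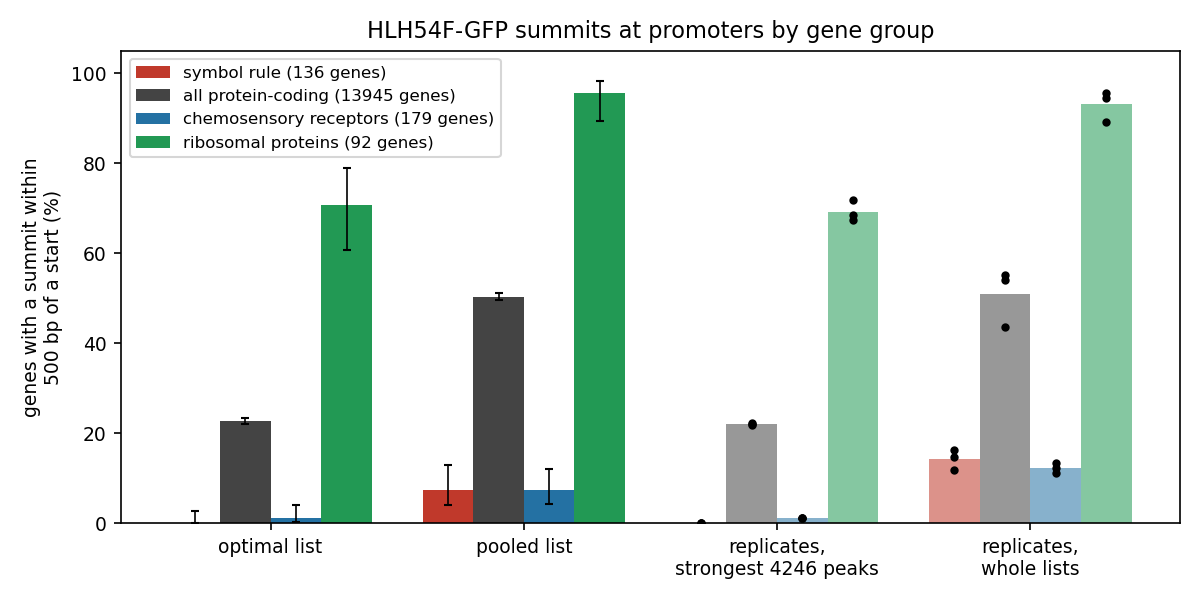
Share of genes (y axis, %) with a summit within 500 bp of a start, for the 136 symbol-rule genes, all 13945 protein-coding genes, 179 chemosensory receptor genes and 92 ribosomal protein genes. Bars for the optimal and pooled lists carry 95% Wilson intervals, and replicate bars are means with a point per replicate (n = 3); the symbol-rule genes stand at 0 in the optimal list and in the strongest 4246 peaks of each replicate.

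Each replicate gave the same count on its own strongest peaks. In the 4246 peaks of highest signal of replicates 1, 2 and 3, 0 members had a promoter summit, against 22.3%, 21.8% and 22.1% of all protein-coding genes. The difference, members minus all genes, was -22.1 ± 0.269 percentage points (SD, n = 3) and was negative in 3 of 3 replicates. With 0 members in each replicate its sign was fixed, and its SD is that of the share of all genes. The exact sign-flip permutation test (two-sided) gave p = 0.25, the smallest p that 3 replicates allow. For the members this test therefore measures no spread between replicates. Short genes with 1 start are a closer comparison, chosen after the data were seen. Of 5787 genes with 1 start and a span under 2000 bp, 13.4% had an optimal promoter summit, and their share in the replicates' strongest peaks was 13.1% ± 0.185 (SD, n = 3). Other gene families ranged widely. The odorant, gustatory and ionotropic receptor genes had an optimal promoter summit in 2 of 179 (1.12%, 0.307 to 3.98), odorant-binding protein genes in 2 of 51 (3.92%) and ribosomal protein genes in 65 of 92 (70.7%). The interval of the members, 0 to 2.75%, overlapped that of the receptors.

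In the pooled list, called on all replicates together and deposited as a relaxed list that holds background, 10 members had a promoter summit. That was 7.35% (4.04 to 13.0), against 50.4% of all protein-coding genes and 32.5% of the short genes with 1 start. Receptor genes stood at 7.26% and ribosomal protein genes at 95.7%. Without the accessory gland genes the count was 8 of 119 (6.72%). The signal of a peak is the authors' own value against the control, and how it was scaled is not stated in the labels or files. Among these 10 members it ranged from 28.3 to 70.7 with a median of 32.3, and over all genes with a pooled promoter summit the median was 81.7. The lowest signal in the optimal list was 92.7, so all 10 lay below it. The pooled list itself starts at 27.9 and has a median of 42.4, and 8 of the 10 lay under that median.

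The strongest of them, at Lcp9, a larval cuticle protein gene on arm 2R, had signal 70.7 and rank 6003 of 23689. Its summit lay 476 bp upstream of Lcp9 and 13 bp from the start of CG3594, so the peak sits at the neighbour's start. It ranked 6315 in replicate 1 and 7977 in replicate 2 and was not in the list of replicate 3. Cpr47Eg, also on 2R, had signal 37.8, rank 14161 and a summit 296 bp downstream of its start, in its coding exon. It was the 1 member with a promoter summit in all 3 replicate lists, at ranks 15354, 17479 and 8466. Cpr51A had signal 29.2, with a summit 182 bp downstream in an intron, and it was found in replicate 3 at rank 11723.

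The remaining pooled-list members off that arm were found in 1 or 2 replicates. Acp36DE, an accessory gland gene, had signal 40.6 and ranks of 29933 in replicate 2 and 7008 in replicate 3. Acp29AB, another accessory gland gene, had signal 34.5 and was found in replicate 1 at rank 11721, with a start of CG42820 454 bp from the summit. Cpr78Ca had signal 29.4 and ranks of 26029 in replicate 2 and 7143 in replicate 3. These ranks differ widely for the same gene. TwdlN (signal 30.1) was found in replicate 2 at rank 22298, and Cpr65Ea (signal 28.5) in replicate 1 at rank 23542. Of the 10 summits 8 lay downstream of the start, 7 of them in the member's coding exon. The matching shares over all genes are not given here. With a median member span of 909 bp, the 500 bp downstream of a start cover much of a typical member.

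Cpr67Fb and Cpr76Ba are shown in sequence because one had the strongest member peak with no other protein-coding start at its summit, and the other a summit upstream of its own start with no other start near. Cpr67Fb had signal 54.7, rank 8348 and a summit 240 bp downstream of its start in its coding exon, and ranked 6031 in replicate 1 and 10463 in replicate 2. An antisense RNA gene, asRNA:CR45171, starts 330 bp from that summit. Cpr76Ba had signal 28.3, rank 23114 and an intergenic summit 215 bp upstream, and was found in replicate 3 at rank 6152. The 101 bases around each summit, 50 on each side, lie at chr3L:10894363-10894463 for Cpr67Fb and chr3L:19518497-19518597 for Cpr76Ba (dm6, plus strand), with E-boxes (CANNTG) in capitals.
Cpr67Fb: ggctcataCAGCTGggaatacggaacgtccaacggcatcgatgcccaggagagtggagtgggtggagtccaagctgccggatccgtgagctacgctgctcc
Cpr76Ba: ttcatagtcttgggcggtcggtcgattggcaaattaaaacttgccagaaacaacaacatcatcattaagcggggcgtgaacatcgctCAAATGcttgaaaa
Both windows hold 1 E-box, away from the summit at the middle. Of the members' 10 windows of this length 5 held an E-box and 5 did not, beside 40.9% of all 23689 pooled summits and 37.8% of all 4246 optimal summits.

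The window of 500 bp fell between close values. Just inside it stood Lcp9 at 476 bp and Cpr65Ea at 442 bp from the nearest pooled summit, and just outside stood Acp76A at 554 bp, Cpr47Eb at 588 bp and Cpr73D at 612 bp.

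The whole replicate lists, which hold 30000, 30000 and 24914 peaks for replicates 1, 2 and 3 and include background, placed a summit at the promoters of 16, 20 and 22 members. These are 11.8%, 14.7% and 16.2% of the members, against 54.1%, 55.1% and 43.6% of all protein-coding genes. The difference was -36.7 ± 8.12 percentage points (SD, n = 3; exact sign-flip test, two-sided, p = 0.25, the smallest possible) and was negative in 3 of 3 replicates. Replicate 3 has the shortest list, the lowest share over all genes and the highest member share. The members' summits stood low in each list. Their median ranks were 19427.5, 20465 and 13603, and the best were 6031 (Cpr67Fb), 7977 (Lcp9) and 6152 (Cpr76Ba), all beyond rank 4246. The corresponding median ranks over all genes with a promoter summit were 5728, 5997.5 and 4163.

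Few of these member summits recurred. In all, 46 members had a promoter summit in at least 1 whole list: 35 in 1 replicate, 10 in 2 and 1 in 3. The 10 found in 2 replicates were Acp36DE, Cpr47Ef, Cpr49Ac, Cpr65Av, Cpr67Fb, Cpr73D, Cpr78Ca, Cpr78Cc, Lcp65Ae and Lcp9. Cpr47Eg was thus 2.17% of the members found at all and 0.735% of all members. Over all protein-coding genes 4864 were found in 3 replicates, 34.9% of all genes and 51.9% of the 9371 found in any. The remaining 90 members had no promoter summit in any replicate list.

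**Figure D2:**
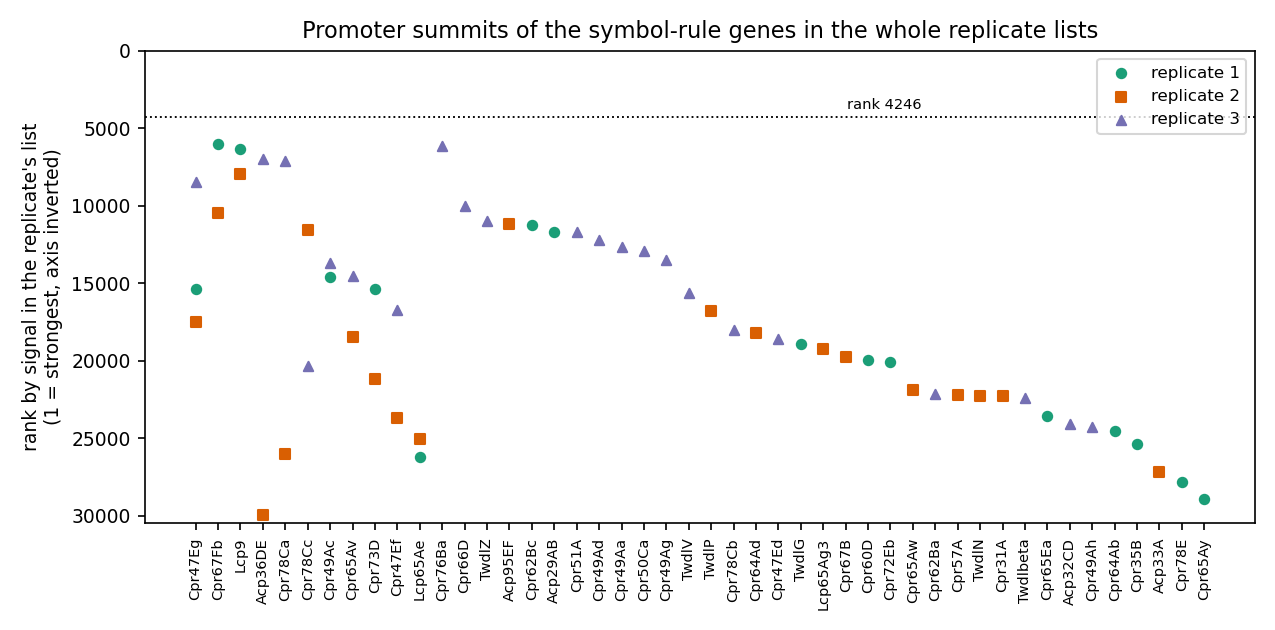
Rank by signal (y axis, inverted, 1 is the strongest peak) of the strongest promoter summit in each whole replicate list, for the 46 members with at least 1 (x axis, ordered by number of replicates, then best rank). The dotted line marks rank 4246; every point lies weaker than it, and Cpr47Eg at the left edge is the 1 gene with a point from each of the 3 replicates.

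Over the prefixes, the pooled list had promoter summits at 6 of 70 Cpr genes, 1 of 25 Twdl genes, 1 of 15 Lcp genes, 2 of 19 Acp genes and 0 of 7 Ccp84A genes. The Ccp84A genes, a tandem set of cuticle genes within the Antennapedia complex, had no promoter summit in any of the 3 replicate lists either. Their nearest optimal summits lay 55.6 to 72.9 kb away, with a median of 66.9 kb. For Cpr genes the median distance was 16.9 kb, for Twdl 21.0 kb, for Lcp 35.4 kb and for Acp 13.2 kb.

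Optimal summits were also sparse in the wider surroundings of the members. The distance from a member's start to the nearest optimal summit ranged from 826 bp to 92632 bp with a median of 21912.5 bp, against a median of 6462 bp for all protein-coding genes. Within 2000 bp of a start there were 4 members (2.94%), against 30.3% of all genes. Within 10 kb there were 29 members (21.3%), against 60.0%. A gene body or the 2000 bp upstream of it held an optimal summit for 1 member, against 30.6% of all genes. The same region held a pooled summit for 32 members (23.5%), against 67.3%. The median distance to a pooled summit was 4342.5 bp for members and 488 bp for all genes.

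**Figure D3:**
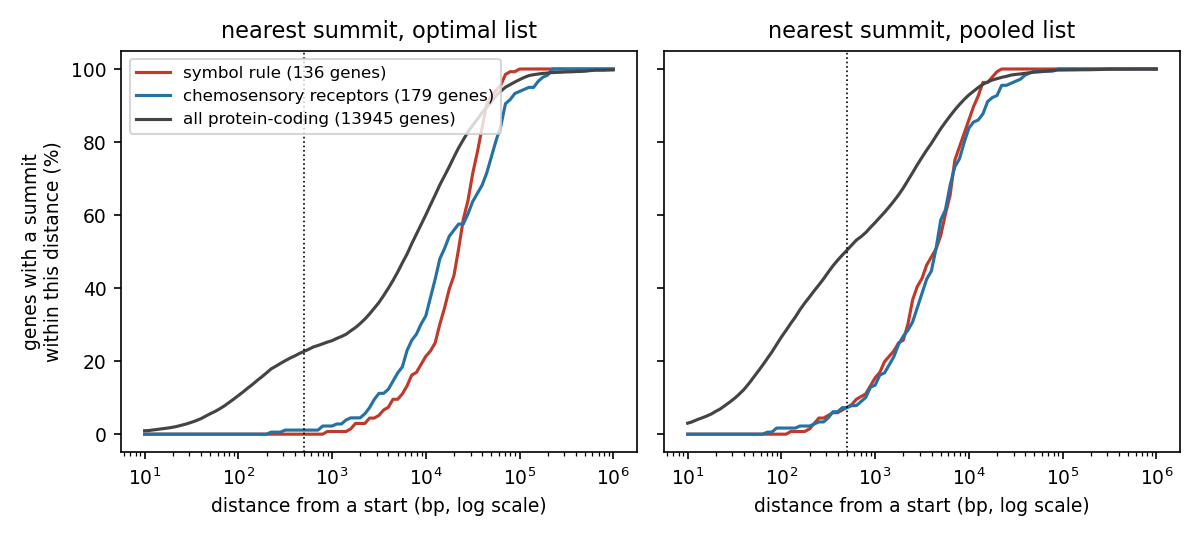
Cumulative share of genes (y axis, %) with the nearest summit of the optimal (left) or pooled (right) list within a distance of a start (x axis, bp, log scale), for the 136 symbol-rule genes, 179 receptor genes and 13945 protein-coding genes. The dotted line marks 500 bp; the symbol-rule genes run below all genes at that line in both lists, at 0 against 22.6% and at 7.35% against 50.4%.

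The optimal peaks closest to members mostly stood nearer to other genes. The 826 bp distance belonged to Cpr73D (chr3L:16956653-16957072, signal 112, ranks 4479, 2395 and 3558 in replicates 1, 2 and 3). That summit lies in introns of both Cpr73D and Ogdh, a subunit gene of the mitochondrial oxoglutarate dehydrogenase, 576 bp from an Ogdh start. For Acp95EF the distance was 1549 bp (signal 151), and the summit lay 38 bp from a start of mask. For Cpr67B it was 2334 bp (signal 122), and the summit lay 3 bp from the start of eIF4E1, which encodes a cap-binding translation factor. Over all members there were 65 distinct nearest optimal peaks, of which 43 had the summit within 500 bp of some gene's start and 0 within 500 bp of a member's. The 0 restates the promoter count given above. The matching share over all optimal peaks is not given here, so the 43 cannot be called high or low.

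An intergenic peak beside the Cpr76B genes differed from these. It lies at chr3L:19516629-19516840 with signal 325 and optimal rank 588, and ranked 609, 1484 and 272 in replicates 1, 2 and 3. Cpr76Ba is the nearest annotated gene start, 1610 bp away, and the summit stands 830 bp outside the cluster, beyond the 3′ end of Cpr76Ba. Among the 5 members nearest to an optimal summit (Cpr73D, Acp95EF, Cpr76Ba, Acp63F and Cpr67B), this was the 1 case with a member as the nearest start.

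Most members lie in tandem clusters, here defined as at least 3 members whose neighbouring gene bodies are at most 10 kb apart. There were 17 such clusters with 90 members, 3 pairs with 6 members and 40 single genes. The cluster Acp53C14a to Acp53C14c consists of 4 accessory gland genes, and the counts and densities below include it. The other 86 clustered members are cuticle proteins. With 500 bp added on each side the clusters cover 251 kb. They held 1 optimal summit, or 3.98 per Mb, against 31.7 per Mb over the 6 arms. Pooled summits numbered 19, or 75.7 per Mb against 177. The whole replicate lists gave 135, 123 and 187 summits per Mb in the clusters (149 ± 33.9, SD, n = 3), against 224, 224 and 186 per Mb over the arms (211 ± 21.9). In replicate 3 the clusters and the arms had nearly equal densities.

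Of the 17 clusters 16 had no optimal summit and 8, with 33 members, had no pooled summit either. The clusters span 3.66 to 31.2 kb. Matching counts for other regions of such length are not given here, so these cannot be called high or low. The clusters Lcp1 to Lcp4 and Acp53C14a to Acp53C14c, the latter of accessory gland genes, had no summit in any list. The largest, Lcp65Ag3 to Cpr65Az on 3L with 18 members over 31.2 kb, had 3 pooled summits, none at a member's promoter and the strongest at signal 54.0. Its nearest optimal summits lay 35.5 and 20.5 kb outside its ends. TwdlM to TwdlD on 3R, 12 Tweedle genes over 21.9 kb, had 1 pooled summit (TwdlN) and flanking optimal summits at 52.1 and 13.7 kb. The second of these, with signal 144, lies in an intron of beat-VII, and its nearest gene start is that of Tb, 1693 bp away. Ccp84Ag to Ccp84Aa on 3R, 7 genes over 18.2 kb, had no pooled summit and flanks at 218 and 54.8 kb, the nearer of them 203 bp from a start of bcd, the maternal anterior determinant.

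The cluster Cpr47Ea to Cpr47Eg, 7 members over 26.7 kb on 2R, was the 1 cluster with an optimal summit. That peak (chr2R:11275768-11276187, signal 114) ranked 3998, 3329 and 3243 in replicates 1, 2 and 3. It is intergenic, 2467 bp from the start of Cpr47Eg and 692 bp from that of TpnC47D, a troponin C gene inside the cluster. This cluster also had the most pooled summits, 5, and its replicate lists held 7, 6 and 11 summits. These counts are not scaled to length. Only the Lcp65Ag3 to Cpr65Az cluster is longer, and the span of Cpr47Ea to Cpr47Eg also holds 3 other protein-coding genes.

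**Figure D4:**
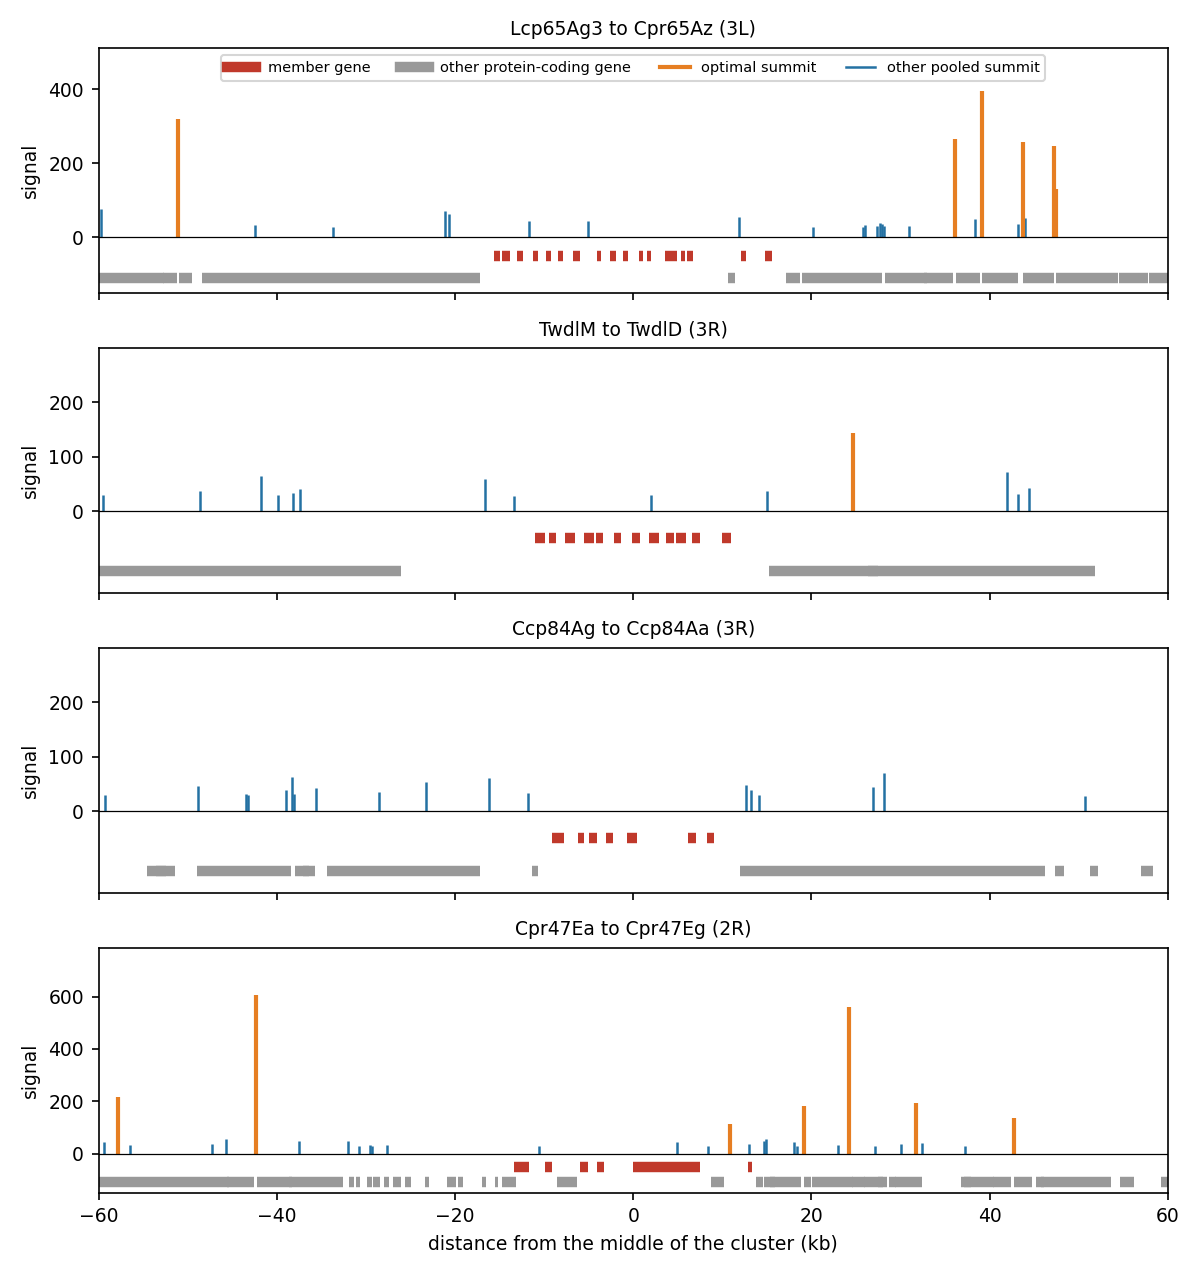
Peak signal (y axis, the authors' value) at optimal summits and other pooled summits within 60 kb of the middle of 4 clusters (x axis, kb), above bars for member genes and for other protein-coding genes. Optimal summits fall in 3 of the 4 panels, outside the member genes, with 1 inside the span of the Cpr47Ea to Cpr47Eg cluster at signal 114; the Ccp84Ag to Ccp84Aa panel holds none.

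The remaining clusters had 0 to 3 pooled summits each. Cpr78Ca to Cpr78Cc had 3, Cpr65Ea to Cpr65Ec and Cpr67Fa1 to Cpr67Fb had 2 each, and Cpr49Aa to Cpr49Ad, Cpr76Ba to Cpr76Bd and TwdlF to TwdlV had 1 each. Cpr49Ae to Cpr49Ah, Cpr62Ba to Cpr62Bc, Cpr64Aa to Cpr64Ad, Cpr72Ea to Cpr72Ec and TwdlX to Twdlalpha had none. Of the 19 pooled summits in clusters, 6 lay within 500 bp of a member's start and 5 were inside a peak of all 3 replicates. Those 5 include the optimal summit near TpnC47D, and 1 of the 19 was in no replicate's list. The matching shares over all pooled summits are not given here, so these counts cannot be called high or low.

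Clustered and single genes could not be told apart by their promoter summits. A pooled promoter summit was found at 6 of 90 clustered members (6.67%, 3.09 to 13.8) and at 4 of 40 single members (10%, 3.96 to 23.1), a difference of -3.33 percentage points with overlapping intervals. Accessory gland genes were 11 of the 40 single members, with 2 of the 4 summits (Acp29AB and Acp36DE), and 4 of the 90 clustered members. Over cuticle proteins, a comparison added after the data were seen, the shares were 6 of 86 (6.98%, 3.24 to 14.4) and 2 of 29 (6.90%, 1.91 to 22.0), a difference of 0.0802 points. In the whole replicate lists the clustered shares were 11.1%, 13.3% and 17.8% (14.1 ± 3.39, SD, n = 3) and the single shares 15%, 20% and 12.5% (15.8 ± 3.82). Clustered genes were lower in replicates 1 and 2 and higher in replicate 3. The mean difference was -1.76 ± 6.25 percentage points (exact sign-flip permutation test, two-sided, p = 0.75), without replicate 2 it was 0.694, and over cuticle proteins -0.214 ± 7.43 (exact test, p = 1). The median distance to an optimal summit was 24.6 kb for clustered and 12.1 kb for single members, and 25.2 and 14.0 kb over cuticle proteins. Neighbouring members share the same nearest summit, so these distances are not independent.

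Some of the genes beside the members carried peaks. Each member's nearest other protein-coding gene gave 83 distinct genes, of which 10 had an optimal promoter summit (12.0%, 6.68 to 20.8) and 28 a pooled one (33.7%), beside the 22.6% and 50.4% of all protein-coding genes. The strongest were amon, a prohormone convertase gene near TwdlQ (signal 1021, optimal rank 49), and CG11309 beside Cpr78Cc (signal 736, optimal rank 100). The CG11309 summit was 4003 bp from the Cpr78Cc start, and the amon summit 20794 bp from the TwdlQ start. Among the 10 genes this distance reached 138107 bp, for Dys beside Cpr92A. Aps, whose gene body lies 83 bp from that of Cpr67Fb, had signal 115. Of the 15 other protein-coding genes that overlap a cluster's span, 2 had an optimal promoter summit (CG43367 and goe).

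By prefix, TATAAA was in 60.0% of Cpr, 60.0% of Twdl, 73.3% of Lcp, 71.4% of Ccp84A and 36.8% of Acp promoters, and in 60.0% of clustered and 57.5% of single members. Of the protein-coding promoters with an optimal summit 2.69% had it, and of those with no pooled summit 13.8%. Among all 1248 protein-coding promoters with the hexamer, 85 had an optimal summit (6.81%), against 24.2% of those without it. The members had 0 of 80 and 0 of 56. A pooled summit was found at 23.4% of all promoters with the hexamer and 53.0% of those without, and at 5 of 80 (6.25%) and 5 of 56 (8.93%) members. The members' shares were below those of all genes both with and without the hexamer.

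Other motifs were searched on both strands from -250 to +50. TATCGATA, the core of the DNA replication-related element of housekeeping promoters, was in 1 member (0.735%), against 8.94% of all protein-coding promoters and 15.1% of those with an optimal summit. The E-box CAGCTG was in 13 members (9.56%, 5.67 to 15.7), against 17.9% of all, 24.3% of those with an optimal summit and 14.2% of those with no pooled summit. The E-box CACCTG was in 16 members (11.8%, 7.37 to 18.3), against 9.34% of all. GAGAG, the core recognised by GAGA factor, was in 42 members (30.9%, 23.7 to 39.1), against 30.2%. The members' intervals held the share of all promoters for CACCTG and GAGAG and not for CAGCTG, TATCGATA or TATAAA. Against promoters with no pooled summit, the interval for CAGCTG did hold the share, and the share for TATCGATA was 4.39%, just above an interval of 0.130 to 4.05. Members of a tandem cluster may not be independent of each other, so all these intervals may be too narrow. Matches of different motifs may overlap in a window, and a match is a string of letters and not a measured site.

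**Figure D5:**
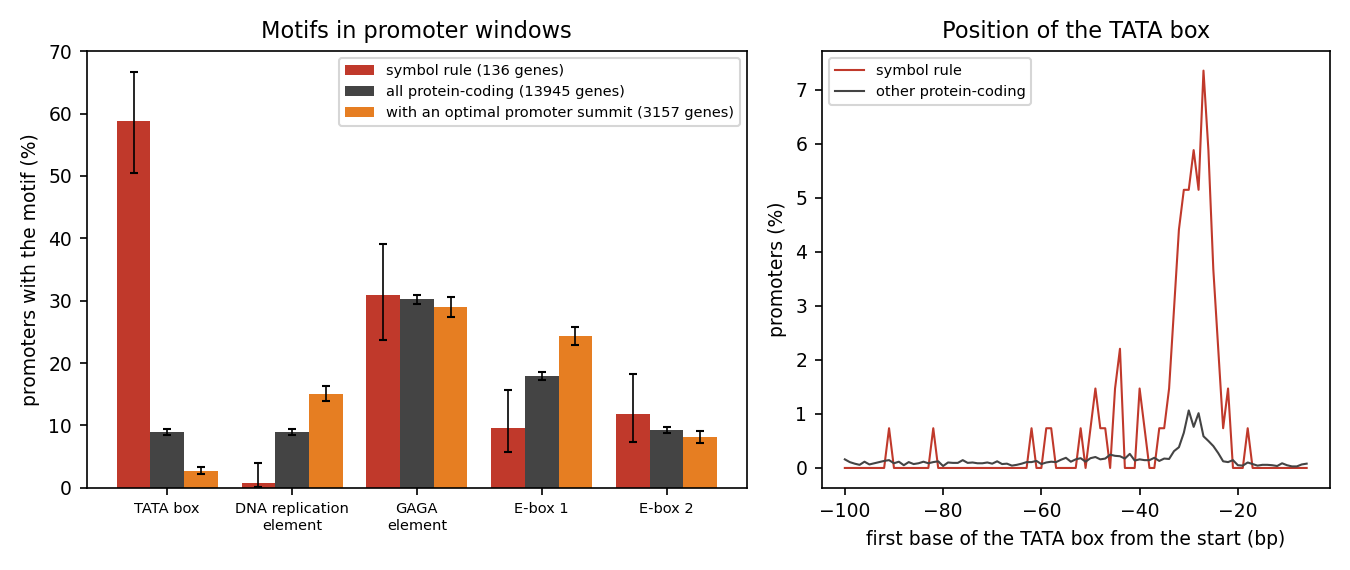
Left, share of promoters (y axis, %, with 95% Wilson intervals) with 5 motifs for the 136 symbol-rule genes, all 13945 protein-coding genes and the 3157 with an optimal promoter summit; E-box 1 is CAGCTG and E-box 2 is CACCTG. Right, share of promoters (%) by the position of the first base of the TATA box relative to the start (x axis, bp): the symbol-rule genes peak at -27, close to the median of -29, with 58.8% having the box in the search window against 8.95% of all genes.

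Other genes of the cuticle were taken from 4 lists and were not uniformly without peaks. Of 19 chitin synthesis and assembly genes 3 had an optimal promoter summit and 9 a pooled one. They were Cht7, a chitinase family gene (signal 228), mmy, the UDP-N-acetylglucosamine pyrophosphorylase gene (126), and Gfat2, which makes glucosamine phosphate (99.7). Of 15 regulators of cuticle genes and moulting 5 had an optimal summit and 11 a pooled one. These 5 were Eip75B (signal 407), usp (237), CrebA (204), vri (147) and Hr39 (122), where Eip75B and Hr39 are nuclear receptors, usp the partner of the ecdysone receptor, CrebA an activator of secretory genes and vri a bZIP factor. The Eip75B peak ranked 275, 246 and 775 in the 3 replicates, and its summit lay 6 bp from a start. The 9 sclerotization and pigment genes had 0 optimal and 5 pooled summits (Dhpr, Pu, e, ple and t). The last list, 16 genes of other cuticle and apical matrix proteins that the symbol rule did not take, had 0 and 5 (Edg84A, dpy, ect, qsm and tyn). The background of 22.6% for optimal and 50.4% for pooled summits applies to these counts, and lists of this size leave wide error.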

How the data were processed

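Whole-embryo HLH54F-GFP ChIP-seq peak lists were used as deposited, in build dm6; the dm3 lists were not used here. The deposited lists give each peak a signal value and a summit offset. Per the deposited text records, relaxed lists were called for each replicate and for the pooled replicates against a control, and an optimal list was derived from them. Not given in the sources used here were the aligner, peak caller, versions, discovery-rate settings and signal scaling. Read totals were not used here, so depth is unknown, and Wilson intervals (95%) and limits for a count of 0 (3 counts) cover counting error over genes only.

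Summits were matched to all transcript starts of Ensembl release 115 (BDGP6 annotation 6.54), and sequences were read from the RefSeq release 6 genome. A replicate held a peak where one of its own peaks contained the summit, or, for counts of promoters, when the replicate's own summit lay within 500 bp of a start. Replicate lists were compared whole and cut to the 4246 peaks of highest signal. Python 3.11.15, numpy 2.4.6, pandas 2.3.3 and scipy 1.17.1 were used, and the counting was checked on simulated data. p-values measure the spread between these 3 samples, which may be technical. The test on the strongest peaks is an exception, since the members stood at 0 in each replicate and showed no spread.

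The members and gene lists were chosen with earlier results of these data known. The receptor, odorant-binding and ribosomal families, the short genes, the genes with a Cpr or Twdl synonym and the 5 members nearest to an optimal summit were chosen after values were seen, as were the bound neighbours named. Genes named by rule were members with an optimal promoter summit, the 10 members of highest pooled promoter signal, each cluster by its first and last member, other genes that start within 500 bp of those summits, and the bound genes of the 4 lists, at most 5 per list. Symbols Pgm3, obst-C, obst-D, AANAT1 and Cpcfc did not match the annotation. No protein table was used, so protein domains were not checked.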

Additional observations from a re-analysis of the deposited data

How the results depend on the processing

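Members with an optimal promoter summit numbered 0, and settings that narrow the search (a 250 bp window, outermost starts, the 2000 strongest peaks, support in every replicate or without each in turn, range 0 to 0, or no accessory gland genes) could not raise that count. With peak intervals in place of summits, which could raise it, it was also 0. The count was 1 at 1000 bp and, at windows chosen after the data were seen, 4 at 2000 bp, 13 at 5000 bp and 29 at 10000 bp. The pooled count of 10 became 6 at 250 bp and 21 at 1000 bp, 14 with peak intervals and 9 for summits nearest to a member (also chosen later). A wider or narrower window takes in more or fewer summits by construction. The member share minus that of all protein-coding genes ranged from -22.2 to -21.9 percentage points without each replicate in turn, and was -12.5 with 2000 peaks per replicate and -13.1 against short genes with 1 start. The members stood at 0 in these lists, so each of these values is minus the share of the compared genes. The clustered minus single difference over replicates reversed to 0.694 without replicate 2, ranged from -5.28 to 0.694 without each replicate in turn and was -6.27 with a cluster gap of 5 kb; the cause was not tested. In the pooled list that difference lay between -9.17 and -3.33 under other gaps, cluster sizes and windows, and reversed to 0.0802 without the accessory gland genes, a setting added after the data were seen; 2 of the 4 single members with a summit are such genes. No paired analysis was possible because there was 1 group of samples, so no samples pair across groups; the differences between gene sets were taken within each replicate. The depth is unknown, so peaks too weak to be listed cannot be told from absent ones.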
